A study of Mus musculus with 72 samples.

Results

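The genes described here are 10 known targets of the glucocorticoid receptor in mouse hippocampus: Sgk1, Ddit4, Tsc22d3, Nfkbia, Cdkn1a, Fkbp5, Zbtb16, Klf9, Hif3a and Plin4. They were taken by symbol, and each symbol matched 1 of the 55401 genes counted. The RNA came from dorsal hippocampus (DH) and ventral hippocampus (VH) of male mice labelled C57BL/6NJ (6NJ) or C57BL/6J (6J). Mice of each label had been fear conditioned with a shock and a cue, had met the cue alone, or came straight from the home cage, and tissue after either session was taken 30 minutes later. Each of the 12 combinations of region, label and condition holds 6 libraries, 72 in all. The labels name no other allele or treatment, and the age of the mice is not given in the sources used here. No group was handled or moved to the chamber without a cue, so the cue, the new place and the handling cannot be told apart. Whether libraries of 1 group are from different mice is not stated in the labels, so p-values measure the spread between these libraries, which may be technical.

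Glucocorticoids, corticosterone in the mouse, are released from the adrenal cortex after a stressor and enter cells, where they bind the glucocorticoid receptor and the mineralocorticoid receptor. The bound receptor leaves its Hsp90 chaperones, moves to the nucleus and binds DNA at glucocorticoid response elements, palindromes of a pair of short sites. Hippocampus is rich in both receptors, and the transcripts described here are widely used there as readouts of receptor action, although several of them are also induced by neuronal activity, cell stress or inflammation.

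The libraries held 30330382 to 56258370 counted reads. Values are given as CPM, reads of a gene scaled to a common library total, and differences as log2 fold changes with their standard error (SE) from edgeR's quasi-likelihood test with Benjamini-Hochberg adjustment over all genes tested, called at an adjusted p under 0.05. Nnt and Gabra2 are known to be low in C57BL/6J, but Nnt lay at 18.3 to 22.9 CPM in the libraries labelled 6NJ and at 34.3 to 44.1 CPM in those labelled 6J, and Gabra2 at 91.1 to 159 CPM under 6NJ and 220 to 330 CPM under 6J. Both genes thus go against the labels, and every statement below on a substrain is about libraries so labelled. Lct, a gene of dorsal hippocampus, lay at 39.1 to 92.3 CPM in DH and 8.98 to 40.0 CPM in VH. The DH and VH libraries carry shared codes, 36 in all. In 6 codes labelled 6J (32A, 32B, 34A and 34C after the cue, 35A and 35B from the home cage) Lcn2, an acute-phase gene that glucocorticoids also induce, was above 2 CPM in both regions, at 5.40 to 20.5 CPM in DH and 3.95 to 16.8 CPM in VH, against 0 to 0.607 CPM in DH and 0 to 0.694 CPM in VH in the other 30 codes. The DH library of code 40A, labelled 6NJ after the cue, lay near the midpoint between DH and VH in its region genes. Results are therefore also given without these codes where that changes a call.

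The 5 members Sgk1, Ddit4, Tsc22d3, Nfkbia and Cdkn1a rose after both kinds of session in both regions, by 0.36 to 0.74 on the log2 scale. Zbtb16, Klf9, Hif3a and Plin4 passed the test in none of these 4 comparisons, and Fkbp5 fell in 1. Against the home cage, 5 of 10 members rose after shock and cue in DH, where 5.52% of all genes rose, and 5 of 10 rose in VH, where 9.84% of all genes did. After the cue alone 5 of 10 rose in DH, beside 7.45% of all genes, and 5 of 10 in VH, beside 16.1% of all genes. The fall of Fkbp5, after shock and cue in DH, stands beside 4.49% of all genes that fell there, while 10.8% fell after shock and cue in VH, 5.57% after the cue in DH and 15.4% after the cue in VH. The median member changed by 0.18 in DH and 0.19 in VH after shock and cue, and by 0.39 and 0.30 after the cue, while the median over all genes tested was between -0.01 and 0.01 in each of the 4. Both sessions were set against the same home cage libraries. The members, and the gene lists used below, were chosen with earlier results of these data known. Their counts beside the shares of all genes are therefore a description, not a test. The counts of members were the same without code 40A, when 10.3% and 20.0% of all genes passed in either direction after shock and cue in DH and VH, and 12.5% and 29.4% after the cue.

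**Figure D1:**
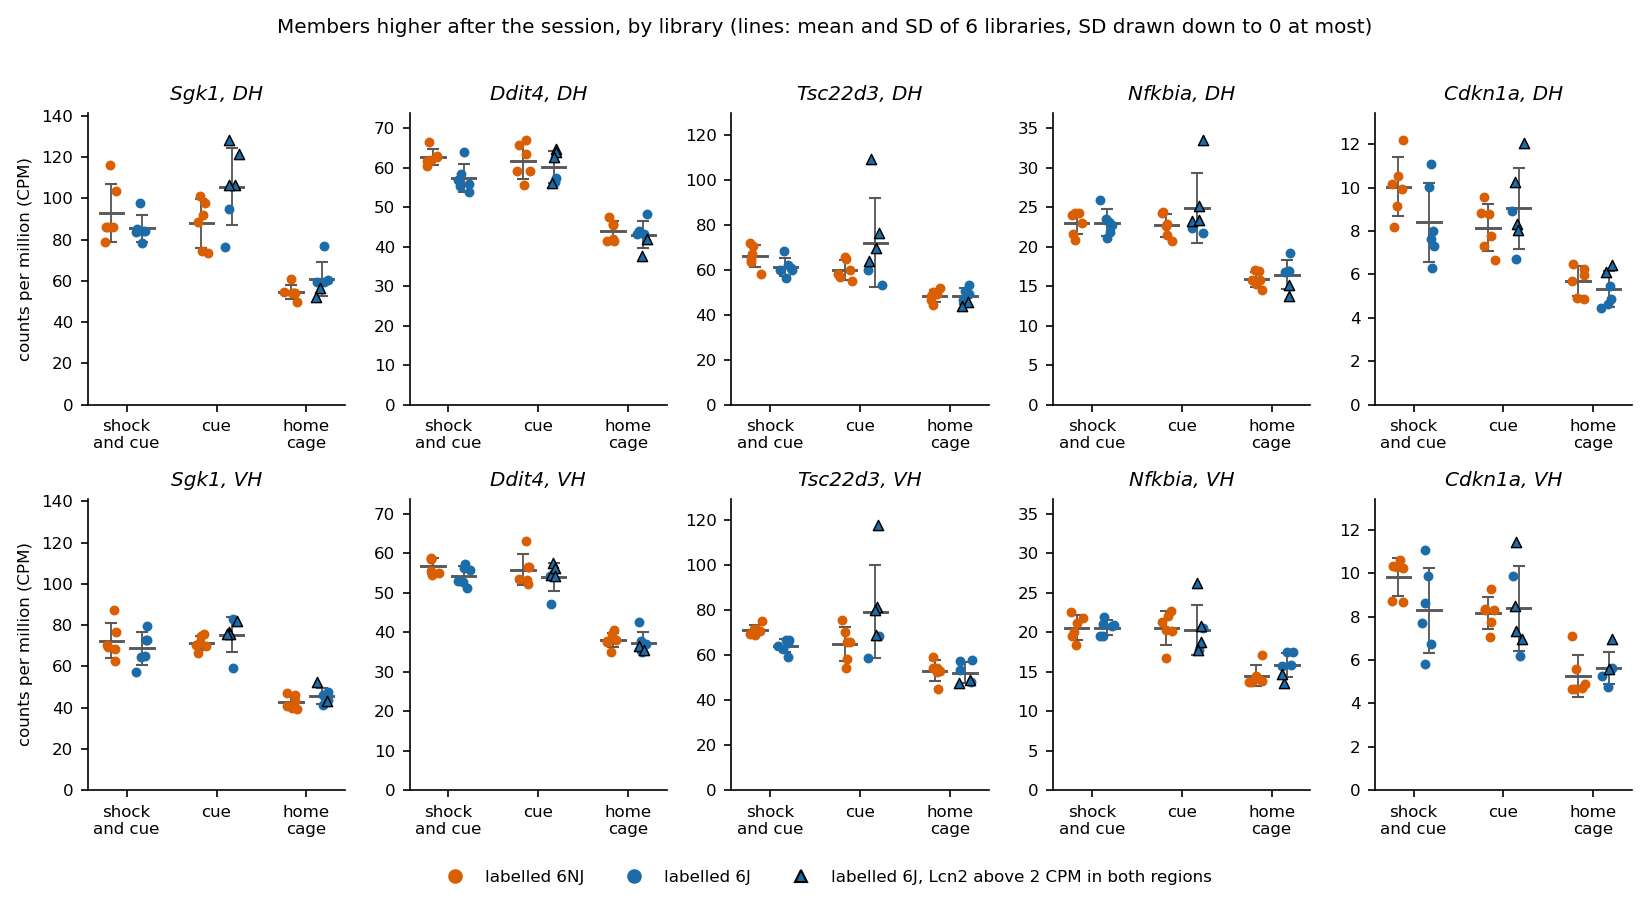
CPM of Sgk1, Ddit4, Tsc22d3, Nfkbia and Cdkn1a (vertical axes, from 0) in each library by condition, DH in the upper row and VH in the lower. Circles are libraries, triangles are those of the 6 codes with Lcn2 above 2 CPM, and lines give the mean and SD of 6 libraries. For Ddit4 every library after a session lies above every home cage library in both regions.

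Sgk1 encodes a serine/threonine kinase that acts on ion channels and transporters and is named for its induction by serum and glucocorticoids. It lies at chr10:21882184-21999903 on the plus strand (GRCm38). A window of 250 bases before 1 of its annotated starts holds a full palindromic glucocorticoid response element, and is shown because this was the only member with that motif. The sequence is from RefSeq (GRCm38.p6, chr10:21993640-21993889, plus strand), and the capitals mark the motif, the sites AGAACA and TGTTCT with any 3 bases between them.
Sgk1: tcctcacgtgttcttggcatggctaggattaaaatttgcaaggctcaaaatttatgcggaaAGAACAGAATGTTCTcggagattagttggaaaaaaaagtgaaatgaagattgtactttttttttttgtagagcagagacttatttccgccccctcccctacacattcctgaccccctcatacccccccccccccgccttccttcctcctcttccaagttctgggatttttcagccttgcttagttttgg

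Searched on both strands, that motif stands in 3 of 32851 such windows over all genes, or 0.00913%. A relaxed form, GNACA and TGTNC with any 3 bases between them, which overlaps it, was found in 0.387% of windows and among the members again in that of Sgk1 alone. The element lies at chr10:21993701-21993715, with 175 bases from its end to the annotated start of transcript Sgk1-202, whose window this is, and 951 bases to that of Sgk1-201. Transcript Sgk1-204 starts far upstream of the element, at position 21882184. Windows were at hand for 9 members, 17 windows in all, and a match describes letters in a window, not a site in use.

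Sgk1 in DH stood at 78.3, 85.5 and 116 CPM after shock and cue (lowest, median and highest of 12 libraries), at 73.4, 96.2 and 129 CPM after the cue, and at 49.9, 55.7 and 76.7 CPM in the home cage. In VH the same values were 57.2, 69.9 and 87.2 CPM after shock and cue, 59.1, 75.2 and 83.1 CPM after the cue, and 39.3, 43.4 and 52.3 CPM in the home cage. In VH no library after either session overlapped the home cage, and in DH all 12 libraries after shock and cue and 9 of 12 after the cue lay above the highest home cage library. Sgk1 rose by 0.63 ± 0.07 (SE) after shock and cue in DH (adjusted p = 3.57e-07) and by 0.67 ± 0.05 in VH (adjusted p = 2.78e-11). After the cue it rose by 0.74 ± 0.07 in DH (adjusted p = 1.01e-08) and by 0.73 ± 0.05 in VH (adjusted p = 1.99e-12).

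The estimated transcript counts split this rise. Sgk1-201, a coding transcript of 2456 bases, stood at 69.6 ± 9.07 CPM after shock and cue, 75.5 ± 15.7 CPM after the cue and 41.5 ± 6.51 CPM in the home cage in DH (SD, n = 12 each). Sgk1-204, coding and 3096 bases long, stood at 9.48 ± 1.46 CPM, 9.84 ± 0.96 CPM and 9.67 ± 1.66 CPM in the same order. After shock and cue Sgk1-201 rose by 0.75 ± 0.09 in DH (adjusted p = 1.04e-06), and its rise in VH was 0.80 ± 0.06 (adjusted p = 4.26e-10). The change of Sgk1-204 was -0.02 ± 0.09 in DH (adjusted p = 0.962), beside 0.21 ± 0.11 in VH (adjusted p = 0.319), although after the cue in VH it rose by 0.37 ± 0.11 (adjusted p = 0.0204). Sgk1-202, the transcript that starts nearest to the printed element, did not pass the test, at 0.00 ± 0.46 in DH (adjusted p = 1) after shock and cue, beside 0.13 ± 0.38 in VH (adjusted p = 0.916). The short Sgk1-208 rose by 1.09 ± 0.22 in DH after shock and cue (adjusted p = 0.00308). The difference between the transcripts was not tested, and their shared exons make each estimate depend on the others.

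**Figure D2:**
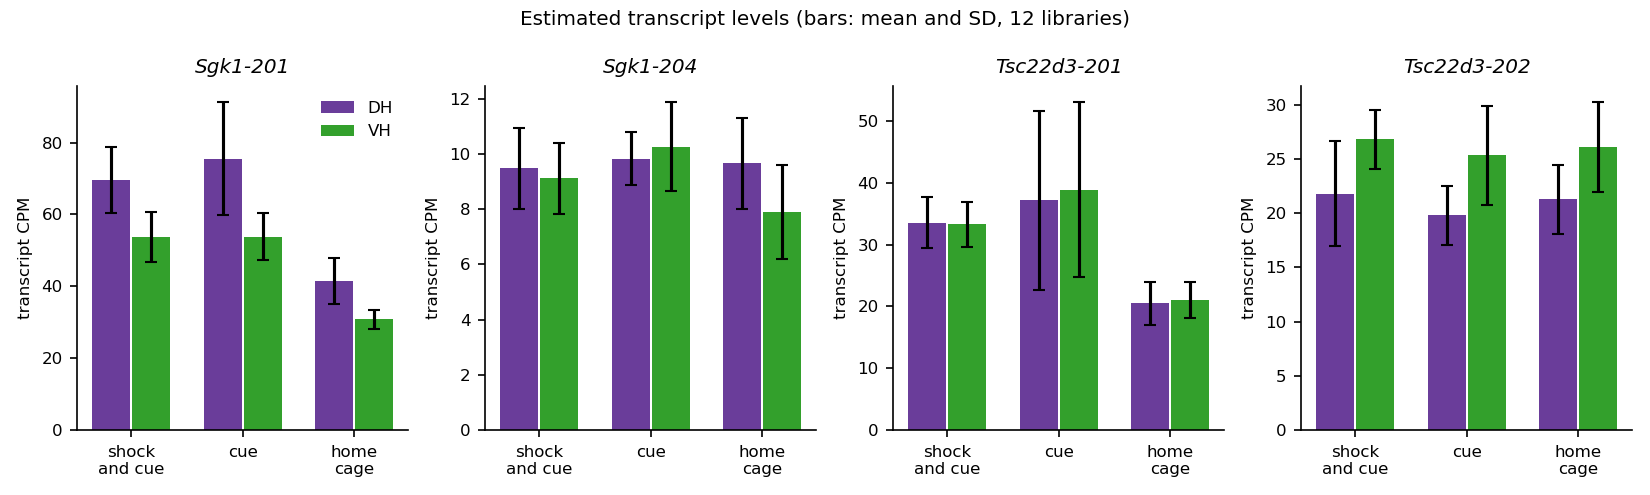
CPM from estimated counts (vertical axes, from 0) of Sgk1-201, Sgk1-204, Tsc22d3-201 and Tsc22d3-202 by condition, with DH and VH side by side; bars and lines give the mean and SD of 12 libraries. Sgk1-201 and Tsc22d3-201 are higher after both sessions, while Tsc22d3-202 stays between 19.8 and 26.8 CPM on average.

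Ddit4, also called REDD1, encodes an inhibitor of the growth kinase mTORC1 that is induced by glucocorticoids and by cell stress. In DH it stood at 53.9, 61.1 and 66.5 CPM after shock and cue, at 55.6, 61.0 and 67.2 CPM after the cue, and at 37.6, 43.3 and 48.2 CPM in the home cage. In VH it stood at 51.3, 55.6 and 58.8 CPM after shock and cue, at 47.2, 54.4 and 63.0 CPM after the cue, and at 35.0, 37.6 and 42.5 CPM in the home cage. It was the only member whose libraries after both sessions all lay above the home cage in both regions, and its ranges after the sessions nearly coincided in DH, while in VH the range after the cue was the wider. Ddit4 rose by 0.47 ± 0.04 in DH (adjusted p = 1.8e-11) and by 0.55 ± 0.03 in VH (adjusted p = 2.49e-15) after shock and cue. After the cue it rose by 0.49 ± 0.04 in DH (adjusted p = 4.39e-12) and by 0.54 ± 0.03 in VH (adjusted p = 4.67e-15).

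Tsc22d3 encodes GILZ, the glucocorticoid-induced leucine zipper, which restrains inflammatory transcription factors. In DH it stood at 56.2, 62.8 and 71.7 CPM after shock and cue, at 53.2, 61.7 and 109 CPM after the cue, and at 43.7, 48.7 and 53.2 CPM in the home cage. In VH it stood at 59.3, 68.0 and 75.2 CPM after shock and cue, at 54.1, 68.7 and 118 CPM after the cue, and at 45.0, 53.0 and 59.4 CPM in the home cage. After shock and cue in DH no library overlapped the home cage, and in VH 11 of 12 lay above its highest library. The highest values after the cue, 109 and 118 CPM, are both from code 32A, 1 of the codes with Lcn2 above 2 CPM. Tsc22d3 rose by 0.40 ± 0.07 in DH (adjusted p = 0.000263) and by 0.36 ± 0.07 in VH (adjusted p = 0.000704) after shock and cue, and by 0.45 ± 0.07 in each region after the cue (adjusted p = 3.57e-05 in DH and 2.48e-05 in VH).

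Among its transcripts, Tsc22d3-201, coding and 1974 bases long, stood in DH at 33.6 ± 4.13 CPM after shock and cue, 37.2 ± 14.5 CPM after the cue and 20.5 ± 3.50 CPM in the home cage. It rose after shock and cue by 0.71 ± 0.12 in DH (adjusted p = 0.000598) and by 0.66 ± 0.11 in VH (adjusted p = 0.000387). Tsc22d3-202, annotated as a processed transcript, changed by 0.04 ± 0.10 in DH (adjusted p = 0.943) and by 0.04 ± 0.09 in VH (adjusted p = 0.888). Of the 52 annotated transcripts of the 10 genes, 31 were tested in DH and 29 in VH. After shock and cue 7 rose in DH and 5 in VH, beside 1.65% and 2.37% of all transcripts. After the cue 7 rose in each region, beside 2.18% of all transcripts in DH and 6.54% in VH. By edgeR's test, the only tool run on transcripts, 0 fell in these 4 comparisons, where 1.14% (DH) and 1.75% (VH) of all transcripts fell after shock and cue and 1.41% (DH) and 6.89% (VH) after the cue.

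Nfkbia encodes the inhibitor that holds NF-kB in the cytoplasm, and it is induced both by glucocorticoids and by NF-kB itself. Its promoter window (RefSeq, GRCm38.p6, chr12:55492648-55492897, minus strand, printed 5' to 3' on that strand) is shown because it holds a motif of NF-kB, in capitals. Read on the other strand, the motif searched is GGGA, any base, TT, any base and CC.
Nfkbia: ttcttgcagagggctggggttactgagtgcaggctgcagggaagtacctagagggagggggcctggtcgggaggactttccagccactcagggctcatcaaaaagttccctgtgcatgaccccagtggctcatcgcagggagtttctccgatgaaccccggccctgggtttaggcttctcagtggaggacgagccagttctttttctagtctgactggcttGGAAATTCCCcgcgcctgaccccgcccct

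That motif, searched on both strands, stands in 0.98% of all windows and in no other member's, and neither form of the glucocorticoid response element is in these 250 bases. The cAMP response element TGACGTCA stands in 1.55% of all windows and in none of the members' 17.

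In DH, Nfkbia stood at 20.9, 23.1 and 25.9 CPM after shock and cue, at 20.7, 23.0 and 33.6 CPM after the cue, and at 13.7, 16.3 and 19.2 CPM in the home cage. In VH it stood at 18.3, 20.8 and 22.6 CPM after shock and cue, at 16.7, 20.4 and 26.2 CPM after the cue, and at 13.6, 14.6 and 17.5 CPM in the home cage. Only the cue libraries of VH overlapped the home cage. Nfkbia rose by 0.51 ± 0.06 in DH (adjusted p = 3.02e-08) and by 0.44 ± 0.06 in VH (adjusted p = 9.25e-07) after shock and cue, and by 0.56 ± 0.06 in DH (adjusted p = 4.05e-09) and by 0.43 ± 0.06 in VH (adjusted p = 6.46e-07) after the cue.

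Cdkn1a encodes p21, an inhibitor of cyclin-dependent kinases. In DH it stood at 6.29, 9.56 and 12.2 CPM after shock and cue, at 6.67, 8.55 and 12.05 CPM after the cue, and at 4.44, 5.58 and 6.47 CPM in the home cage. In VH it stood at 5.79, 9.30 and 11.1 CPM after shock and cue, at 6.16, 8.31 and 11.4 CPM after the cue, and at 4.64, 5.41 and 7.09 CPM in the home cage. All 12 DH libraries after the cue and 11 of 12 after shock and cue lay above the highest home cage library. Cdkn1a rose by 0.74 ± 0.09 in DH (adjusted p = 7.4e-07) and by 0.73 ± 0.10 in VH (adjusted p = 1.82e-06) after shock and cue, and by 0.64 ± 0.09 in DH (adjusted p = 6.65e-06) and by 0.60 ± 0.10 in VH (adjusted p = 1.65e-05) after the cue. An annotated transcript on the opposite strand, AC167363.2, shares 273 of its 3553 exon bases, and the strand setting of the counting is not given in the sources used here.

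Without any overlap between the 12 libraries of a session and the 12 of the home cage, 4 members were higher after shock and cue in DH (Sgk1, Tsc22d3, Ddit4 and Nfkbia), where 0.336% of all genes were. After shock and cue in VH this held for 3 members (Sgk1, Ddit4 and Nfkbia), beside 0.413% of all genes. After the cue it held for Ddit4, Cdkn1a and Nfkbia in DH, beside 0.326% of all genes, and for Sgk1 and Ddit4 in VH, beside 0.577%.

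Fkbp5 encodes a co-chaperone of Hsp90 that lowers the receptor's affinity for hormone and so closes a feedback loop. In DH it stood at 46.5, 53.1 and 67.0 CPM after shock and cue, at 47.7, 58.5 and 81.7 CPM after the cue, and at 56.5, 61.3 and 72.2 CPM in the home cage. In VH it stood at 44.8, 52.1 and 63.4 CPM after shock and cue, at 46.6, 53.9 and 78.4 CPM after the cue, and at 50.2, 55.7 and 74.3 CPM in the home cage. The ranges overlapped throughout. Fkbp5 fell after shock and cue in DH, by 0.23 on the log2 scale (SE 0.06, adjusted p = 0.014), where 4.49% of all genes fell. Its transcript Fkbp5-201 changed by -0.23 ± 0.07 there (edgeR, adjusted p = 0.0507). Within either label alone Fkbp5 did not pass in DH. In VH it changed by -0.12 ± 0.07 (adjusted p = 0.258), and after the cue by -0.05 ± 0.06 in DH (adjusted p = 0.614) and by 0.00 ± 0.07 in VH (adjusted p = 0.982).

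**Figure D3:**
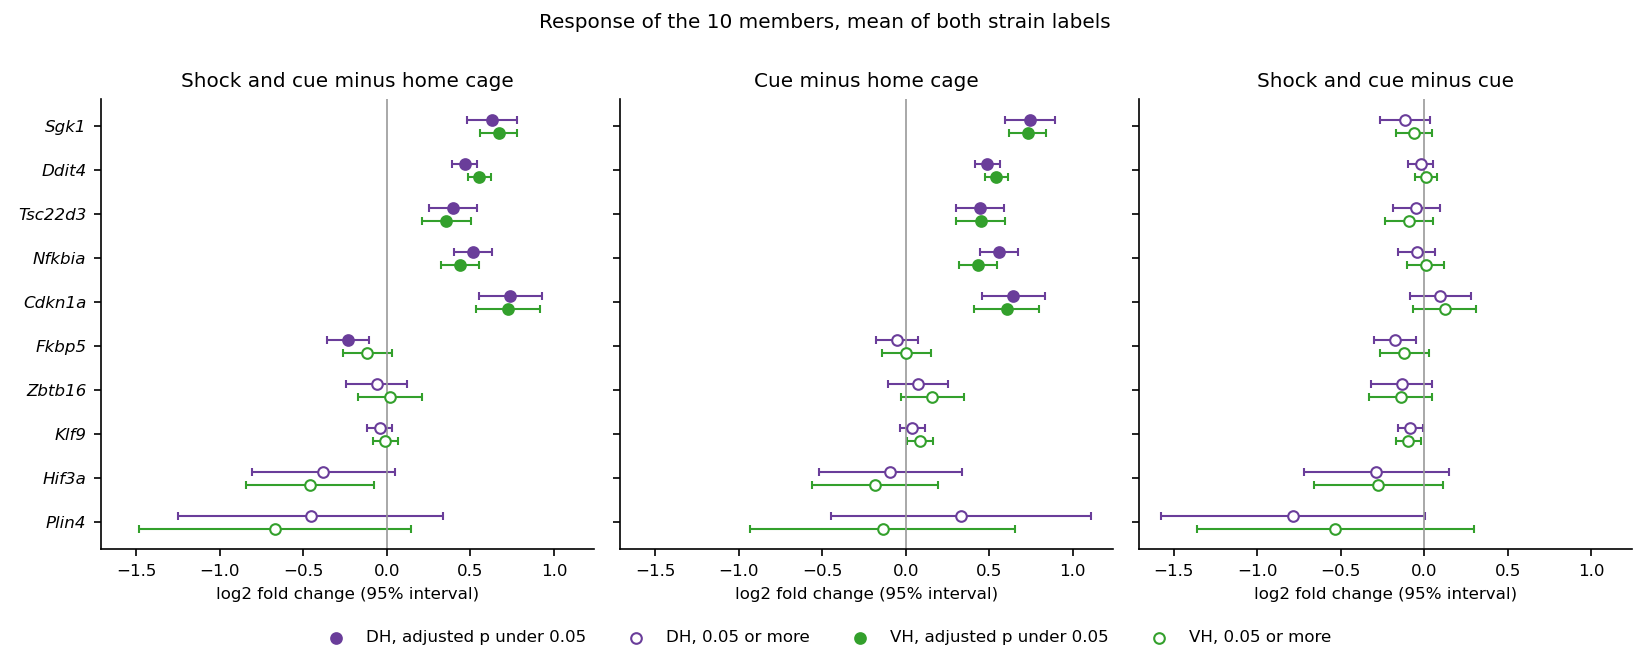
Log2 fold changes of the 10 genes (horizontal axes, points with 95% intervals) for shock and cue against home cage, cue against home cage, and shock and cue against cue. DH and VH are in separate colours, and filled points have an adjusted p under 0.05. In the first 2 panels Sgk1, Ddit4, Tsc22d3, Nfkbia and Cdkn1a have filled points right of 0 in both regions, and in the last no point is filled.

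Zbtb16 and Klf9 encode transcription factors of the zinc finger class, and Hif3a an oxygen-responsive factor that can oppose its relatives. Zbtb16 in DH stood at 34.3, 43.5 and 53.5 CPM after shock and cue, at 30.5, 45.8 and 72.3 CPM after the cue, and at 34.4, 43.6 and 53.4 CPM in the home cage, and changed by -0.06 ± 0.09 after shock and cue (adjusted p = 0.734). Klf9, the most abundant member, stood in DH at 222, 247 and 279 CPM after shock and cue, at 228, 260 and 300 CPM after the cue, and at 222, 257 and 274 CPM in the home cage. Its changes were small with narrow intervals: -0.04 ± 0.04 in DH and -0.01 ± 0.04 in VH after shock and cue (adjusted p = 0.513 and 0.9), and 0.04 ± 0.04 and 0.09 ± 0.04 after the cue (adjusted p = 0.509 and 0.073).

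Hif3a stood in DH at 2.34, 3.66 and 5.96 CPM after shock and cue, at 2.86, 3.55 and 15.8 CPM after the cue, and at 3.50, 4.71 and 7.89 CPM in the home cage. In VH it stood at 2.42, 3.90 and 6.43 CPM after shock and cue, at 2.77, 4.27 and 13.5 CPM after the cue, and at 4.15, 5.10 and 8.25 CPM in the home cage. Medians were lowest after the sessions, while the highest values, 15.8 and 13.5 CPM, were both of code 32A. Its changes after shock and cue did not pass the test, at -0.38 ± 0.21 in DH (adjusted p = 0.279) and at -0.46 ± 0.19 in VH (adjusted p = 0.0811). Without the 6 codes with Lcn2 above 2 CPM, Hif3a fell in VH both after shock and cue, at -0.40 ± 0.13 (adjusted p = 0.0378), and after the cue, at -0.62 ± 0.16 (adjusted p = 0.0154), beside 16.0% and 12.2% of all genes that then passed in either direction.

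Plin4 encodes a perilipin, a coat protein of lipid droplets. It was the least abundant member, at 1.08, 1.38 and 1.80 CPM after shock and cue, 0.613, 1.49 and 14.8 CPM after the cue, and 0.695, 1.34 and 10.8 CPM in the home cage in DH. Its SE of 0.39 in DH after shock and cue was the widest of the 10 genes, and no difference between conditions passed the test.

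**Figure D4:**
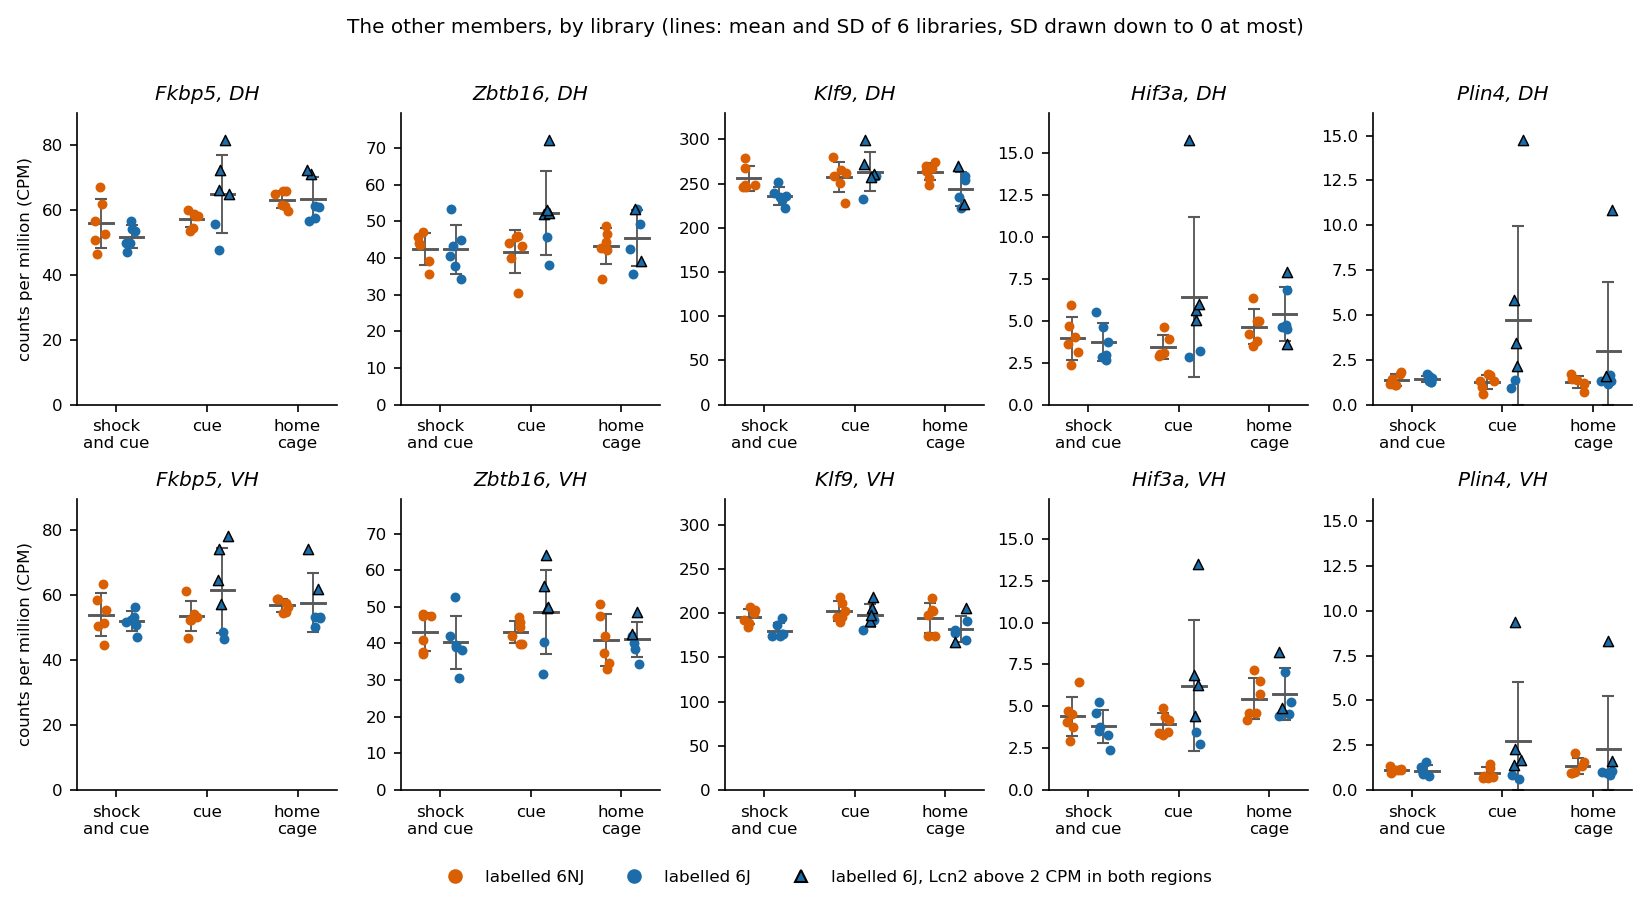
CPM of Fkbp5, Zbtb16, Klf9, Hif3a and Plin4 (vertical axes, from 0) in each library by condition, DH above VH. Circles are libraries, triangles are those of the 6 codes with Lcn2 above 2 CPM, and lines give the mean and SD of 6 libraries. The triangles include the highest values of Hif3a and Plin4, while most other libraries of these genes lie close together.

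The 6 codes with Lcn2 above 2 CPM held the extremes of several members in both regions. Plin4 reached 14.8 CPM in DH and 9.39 CPM in VH for code 32A, and 10.8 and 8.33 CPM for code 35B, while the 30 other codes lay at 0.613 to 1.80 CPM in DH and 0.632 to 2.07 CPM in VH. Tsc22d3 at 109 and 118 CPM in code 32A compares with 44.4 to 71.7 CPM in DH and 45.0 to 75.4 CPM in VH over the 30 other codes. Fkbp5 in code 32A was at 81.7 CPM in DH and 78.4 CPM in VH, beyond the highest of the 30 other codes, 67.0 CPM in DH and 63.4 CPM in VH. Code 35B, from the home cage, had high Plin4, Fkbp5 at 72.2 and 74.3 CPM and Hif3a at 7.89 and 8.25 CPM, while Ddit4 was at 37.6 and 35.5 CPM. Sgk1 in that code was at 52.4 CPM in DH, under the home cage median, and at 52.3 CPM in VH, the highest of its 12 home cage libraries. So in code 35B, Plin4, Fkbp5 and Hif3a were high in both regions and Sgk1 in VH, while Ddit4 was among the lowest. The part of these codes in the results was not tested beyond leaving them out.

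Leaving out those 6 codes, Sgk1, Ddit4, Tsc22d3, Nfkbia and Cdkn1a, 5 members, rose after both sessions in both regions on the mean of the labels, when 8.02% of all genes passed after shock and cue and 2.49% after the cue in DH, and 16.0% and 12.2% in VH. Only the rise of Tsc22d3 after the cue then differed by over 1.5 times, at 0.24 ± 0.05 in DH (adjusted p = 0.00374), with 0.26 ± 0.06 in VH (adjusted p = 0.00363). For the libraries labelled 6J alone the cue comparison then sets 2 codes against 4, and the count of members that rose dropped to 1 in DH (Ddit4, 0.34 ± 0.07, adjusted p = 0.0226) and 2 in VH (Sgk1, 0.67 ± 0.12, and Ddit4, 0.42 ± 0.07), against 5 in each region with all codes. The members that then missed the threshold were not all small. Cdkn1a was at 0.68 ± 0.18 in DH (adjusted p = 0.157) without these codes and at 0.77 ± 0.13 with them, and Nfkbia at 0.33 ± 0.08 (adjusted p = 0.124) without and 0.60 ± 0.08 with them. Sgk1 in DH was at 0.42 ± 0.14 without and 0.80 ± 0.10 with them, and Tsc22d3 at 0.18 ± 0.08 without and 0.58 ± 0.10 with them. In VH Cdkn1a was at 0.58 ± 0.19 without and 0.58 ± 0.13 with them, Nfkbia at 0.20 ± 0.10 without and 0.36 ± 0.08 with them, and Tsc22d3 at 0.24 ± 0.09 without and 0.61 ± 0.10 with them. Of all genes, 0.152% in DH and 0.230% in VH then passed in either direction.

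Shock and cue was also set against the cue alone, the comparison that bears on the shock. By edgeR's test 0 of 10 members and 0% of all genes passed in either region, and DESeq2 called 0 members as well. At an unadjusted p under 0.05 there were 2 members in DH (Fkbp5 and Klf9), beside 1997 of 19647 genes, and 1 in VH (Klf9), beside 1426 of 19597 genes. Within the libraries labelled 6J 0 members and 0% of all genes passed, but 7 of 10 members in DH and 6 of 10 in VH had an unadjusted p under 0.05, beside 1896 and 1465 genes, with a median over the members of -0.27 in DH and -0.20 in VH. Those cue groups hold 4 of the codes with raised Lcn2. Without the codes with raised Lcn2, 0 of 10 members had an unadjusted p under 0.05 in either region, beside 480 genes in DH and 460 in VH. That comparison has only 2 cue codes left, so it can miss differences that more libraries would show. The part of the codes left out was not tested. Within 6NJ there was 1 such member in DH, beside 1399 genes, and 0 in VH, beside 1218 genes. Fkbp5 differed by -0.18 in DH, with a 95% interval of -0.30 to -0.05 (adjusted p = 0.426). The 95% interval for Sgk1 in DH was -0.26 to 0.03, and for Ddit4 -0.10 to 0.05, so that at this depth and spread a difference of the size seen against the home cage lay outside them. The ranges after shock and cue and after the cue alone overlapped for every member.

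Within each label the response was seen separately. Among libraries labelled 6NJ, 5 members rose after shock and cue in DH, beside 2.30% of all genes, and 5 in VH, beside 4.56%. Among those labelled 6J, 4 rose in each region, beside 1.28% and 1.84% of all genes; Tsc22d3 missed the threshold there, at 0.34 ± 0.10 in DH (adjusted p = 0.0693) and at 0.30 ± 0.10 in VH (adjusted p = 0.1). Without the codes with raised Lcn2 the count under 6J in DH was again 4, but Tsc22d3 passed, at 0.29 ± 0.06 (adjusted p = 0.0139), and Sgk1 missed the threshold, at 0.41 ± 0.10 (adjusted p = 0.0513), beside 0.870% of all genes in either direction. After the cue, 4 members rose in each region under 6NJ, beside 1.75% of all genes in DH and 6.97% in VH, and 5 under 6J, beside 3.81% and 7.78%. There Tsc22d3 missed the threshold under 6NJ, at 0.31 ± 0.10 in DH (adjusted p = 0.103) and at 0.29 ± 0.10 in VH (adjusted p = 0.0545). Without the codes with raised Lcn2, none of which is labelled 6NJ, Tsc22d3 passed under 6NJ, at 0.31 ± 0.05 in DH (adjusted p = 0.000992), with 0.29 ± 0.06 in VH (adjusted p = 0.0042), which makes 5 members in each region beside 2.37% and 11.4% of all genes in either direction. Without code 40A it passed in VH, at 0.34 ± 0.10 (adjusted p = 0.036), again 5 members, beside 9.30% of all genes. The difference in response between the labels was tested itself: edgeR called 0 members, and 0% of all genes, for either session in either region, and DESeq2 called 0 members. At an unadjusted p under 0.05 there was 1 member, Tsc22d3 for the cue in VH (-0.32 ± 0.14, 6NJ minus 6J), beside 539 of 19597 genes.

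Between the labels, averaged over conditions, 1 member passed in DH, where 6.64% of all genes were lower under 6NJ. Plin4 stood at 0.613, 1.31 and 1.80 CPM in DH libraries labelled 6NJ and at 0.922, 1.52 and 14.8 CPM in those labelled 6J, and was lower under 6NJ by 1.07 ± 0.32 on the log2 scale (adjusted p = 0.0203). Without the 6 codes with Lcn2 above 2 CPM the Plin4 difference was -0.00 ± 0.14 (adjusted p = 0.991). In those 30 codes Klf9 was higher under 6NJ, by 0.10 ± 0.03 in DH (adjusted p = 0.0454) and by 0.12 ± 0.03 in VH (adjusted p = 0.0315), where 7.75% and 6.31% of all genes passed in either direction, while with all codes it was at 0.07 ± 0.03 and 0.08 ± 0.03 (adjusted p = 0.144 and 0.0824). In VH with all codes 0 members passed by edgeR, beside 9.92% of all genes in either direction; 2 had an unadjusted p under 0.05, and DESeq2 called 0 members. Of 9 oligodendrocyte markers, 8 were higher under 6NJ in DH, beside 8.06% of all genes, and their summed level was 7766 to 13003 CPM under 6NJ and 6359 to 10872 CPM under 6J; their part in these values was not tested.

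Between the regions, Sgk1, Klf9, Ddit4 and Nfkbia were higher in DH and Tsc22d3 was lower, among 32.7% and 30.9% of all genes. Klf9 stood at 222, 255 and 300 CPM in 36 DH libraries and at 167, 193 and 219 CPM in 36 VH libraries, a difference of 0.40 ± 0.02 (adjusted p = 4.12e-26). Sgk1 stood at 49.9, 83.8 and 129 CPM in DH and 39.3, 67.5 and 87.2 CPM in VH, a difference of 0.37 ± 0.04 (adjusted p = 2.8e-13). Ddit4 and Nfkbia were each higher in DH by 0.16 (SE 0.02 and 0.03, adjusted p = 7.17e-10 and 1.89e-05), and Tsc22d3 was lower by 0.11 (SE 0.04, adjusted p = 0.0133). Without the codes with raised Lcn2, Fkbp5 (0.10 ± 0.03, adjusted p = 0.00516) and Plin4 (0.36 ± 0.10, adjusted p = 0.00199) were higher in DH as well, 6 higher and 1 lower beside 57.1% of all genes in either direction. With the shared code as a block, 8 members passed, beside 65.8% of all genes: Fkbp5 (0.08 ± 0.02, adjusted p = 0.00015) and Plin4 (0.38 ± 0.09, adjusted p = 0.000197) were then also higher in DH and Hif3a lower (-0.12 ± 0.04, adjusted p = 0.00784). The 9 oligodendrocyte markers and 6 choroid plexus markers were all higher in DH as well. Summed, the oligodendrocyte markers had 6359 to 13003 CPM in DH and 3309 to 8400 CPM in VH, and the choroid plexus markers 40.9 to 8851 CPM in DH and 23.7 to 2343 CPM in VH. Medians of summed markers were also higher in DH for CA1 (472 against 376 CPM in VH). Those of dentate granule cells were 391 and 281 CPM, and those of CA2 and CA3 332 and 280 CPM. General neuron markers (5133 against 5486 CPM) and pericyte and smooth muscle markers (152 against 166 CPM) were lower in DH. The part of these markers in the differences of the members was not tested. In tissue of mixed cells, more cells of a type and more RNA per cell cannot be told apart. Whether the response differed between regions was tested over all 72 libraries, and edgeR and DESeq2 called 0 members for shock and cue, with 0 at an unadjusted p under 0.05 and 0% of all genes called by edgeR. With the code as a block 0 members and 0.0691% of all genes passed, and Fkbp5 (-0.13 ± 0.05, unadjusted p = 0.00911, adjusted p = 0.221) and Ddit4 (-0.09 ± 0.04, unadjusted p = 0.0109, adjusted p = 0.234) had an unadjusted p under 0.05.

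Per kilobase of exon, the mean level over all libraries ran from Klf9 (46.3 CPM per kilobase) through Ddit4 (29.7), Sgk1 (14.7), Tsc22d3 (14.2), Nfkbia (12.3), Zbtb16 (8.28), Fkbp5 (6.09) and Cdkn1a (2.16) to Hif3a (0.709) and Plin4 (0.295). The neighbours Sgk1 and Tsc22d3 differed by less than the spread of either over libraries.

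By median change, the cells' own receptor and its partners moved less than the members. Of 11 genes of hormone reception and handling, 10 were tested. After shock and cue 1 of 10 rose in DH, the Hsp90 co-chaperone Fkbp4 (0.16 ± 0.04, adjusted p = 0.0125), and 2 of 10 rose in VH, the chaperone Hsp90aa1 (0.21 ± 0.04) and the glucocorticoid receptor Nr3c1 (0.12 ± 0.04, adjusted p = 0.0499). After the cue 2 of 10 rose in DH (Hsp90aa1 and Fkbp4) and 5 of 10 in VH, the same count as of the members there. Of all genes, 5.52% rose in DH and 9.84% in VH after shock and cue, and 7.45% and 16.1% after the cue. With 10 genes, a count of 1 is close to such shares. None of the 10 fell in any of the 4. Of all genes, 4.49% in DH and 10.8% in VH fell after shock and cue, and 5.57% and 15.4% after the cue. The median changes of these 10 genes lay between 0.01 and 0.11. Nr3c2, the mineralocorticoid receptor, changed by -0.08 ± 0.06 in DH and 0.06 ± 0.06 in VH after shock and cue, neither past the test.

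Of 17 further genes known to be induced by glucocorticoids, 5 rose and 1 fell in DH after shock and cue, and 6 rose and 2 fell in VH. Beside them 5.52% of all genes rose and 4.49% fell in DH, and 9.84% rose and 10.8% fell in VH. The falls, 1 and 2 of 17, are thus near the shares of all genes. Dusp1, a phosphatase that switches off MAP kinases, rose by 0.95 ± 0.13 in DH and 0.89 ± 0.07 in VH, and the clock gene Per1 by 0.47 ± 0.05 and 0.39 ± 0.04. Errfi1, an inhibitor of EGF receptor signalling, rose by 0.31 ± 0.04 and 0.51 ± 0.04, and Pdk4, a kinase that restrains pyruvate oxidation, by 0.42 ± 0.06 and 0.33 ± 0.05. The metallothioneins Mt1 and Mt2 fell in VH, by 0.28 and 0.38 on the log2 scale (SE 0.08 and 0.09). After the cue 6 rose and 0 fell in DH, and 5 rose and 2 fell in VH. There 7.45% of all genes rose and 5.57% fell in DH, and 16.1% rose and 15.4% fell in VH. Median changes of this list were 0.04 in DH and -0.03 in VH after shock and cue.

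By median change, genes of neuronal activity moved further in the same libraries. After shock and cue 8 of 8 immediate early genes rose in DH and 7 of 8 in VH, with median changes of 1.23 and 1.18. Of all genes, 5.52% rose in DH and 9.84% in VH, while 4.49% and 10.8% fell. Arc, a synaptic gene, rose by 1.66 ± 0.09 in DH and 1.53 ± 0.06 in VH, and Fos by 2.33 ± 0.17 and 2.28 ± 0.12. Beside them, 0 of 6 microglia, 0 of 9 oligodendrocyte and 0 of 6 choroid plexus markers passed in either region after shock and cue. Some summed markers had lower medians in DH after shock and cue than in the home cage. They were 436 and 506 CPM for CA1, 361 and 408 CPM for dentate granule cells, and 310 and 345 CPM for CA2 and CA3. Those of choroid plexus (567 and 178 CPM) and blood (111 and 75.3 CPM) were higher. Ranges overlapped in each, and their part in the results was not tested. After the cue 4 of 6 microglia markers rose in VH, where 16.1% of all genes rose. The summed level of the 6 markers there was 224 to 379 CPM after the cue and 173 to 306 CPM in the home cage. The part of these markers in the cue results of VH was not tested.

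By likeness of pattern, the 3 genes most like each member were found among 15275 genes by the mean of the Pearson correlations over the 36 libraries of each region, as a description of libraries that share their conditions and depth. Nearest to Sgk1 were Errfi1 (mean r 0.90), the member Ddit4 (0.90) and Arc (0.89), and nearest to Ddit4 were Tob2 (0.93), Arc (0.93) and Junb (0.92). Nfkbia was nearest to the members Ddit4 (0.89) and Sgk1 (0.87) and to Tob2 (0.88), and Cdkn1a to Nfil3 (0.82), Spry4 (0.81) and Arc (0.81). Tsc22d3 had Gm19439 (0.80), Sgk1 (0.78) and Plekhf1 (0.78). The members that did not rise had other neighbours: Fkbp5 had Ksr1 (0.89), Zhx3 (0.85) and Pkp2 (0.81), Hif3a had Mertk (0.79), Plin4 had Mfsd2a (0.81), Zbtb16 had Dapk1 (0.80) and Klf9 had Add2 (0.78). These correlations include the codes with raised Lcn2, which hold the highest values of Plin4, Hif3a and Fkbp5 in both regions. The part of those codes in the likeness was not tested.

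Libraries of DH and VH with the same code were compared member by member, as log2 CPM less the group mean, over the 30 codes without raised Lcn2. This gave 10 correlations, tested by permutation of the 30 codes together, not within groups. Values less a group mean are not independent within a group, and 6J after the cue kept 2 codes. The permutation p-values are therefore approximate. Over all 20255 genes tested the same r had a median of 0.11 and quartiles of -0.04 and 0.26, so a small positive r was usual. For Hif3a, Pearson's r was 0.74 (permutation p = 1e-05, the smallest the permutations can give; adjusted p = 1e-04) and Spearman's rho 0.66 (permutation p = 0.00011; adjusted p = 0.0011), and r was 0.64 without the 2 codes farthest from the median. Cdkn1a had r = 0.60 (permutation p = 0.00051, adjusted p = 0.00255), rho = 0.58 (permutation p = 0.00099, adjusted p = 0.00495) and 0.42 without the 2 farthest. Ddit4 had r = 0.49 (permutation p = 0.00588, adjusted p = 0.0147), rho = 0.44 (permutation p = 0.01699, adjusted p = 0.0566) and 0.47 without the 2 farthest. For Fkbp5 r was 0.55 (permutation p = 0.00233, adjusted p = 0.00777) with rho = 0.36 (permutation p = 0.05272, adjusted p = 0.0879), and it rested on 2 codes, since r was 0.19 without them. Nfkbia had r = 0.41 (permutation p = 0.02435, adjusted p = 0.0487), rho = 0.40 (permutation p = 0.02787, adjusted p = 0.0697) and 0.40 without the 2 farthest. Tsc22d3, Zbtb16 and Klf9 had r of 0.30 to 0.33 (adjusted permutation p of 0.117 to 0.132). Plin4 had r = -0.22 (permutation p = 0.24821, adjusted p = 0.248) and rho = -0.21 (permutation p = 0.27185, adjusted p = 0.272). Sgk1 lay within the quartiles of all genes, with r = 0.22 (permutation p = 0.24673, adjusted p = 0.248) and rho = 0.22 (permutation p = 0.25086, adjusted p = 0.272). So a library with high Hif3a in DH tended to have its coded partner high in VH, within its group. The labels do not say that a code is 1 mouse.

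**Figure D5:**
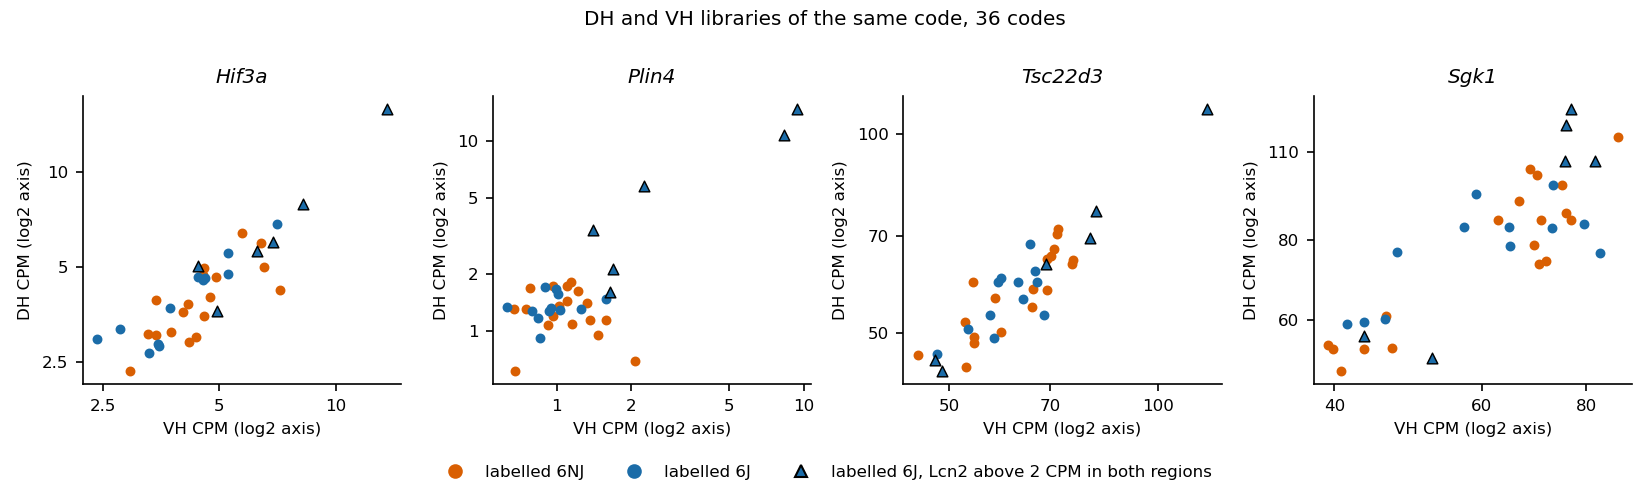
DH CPM (vertical log2 axes) against VH CPM (horizontal log2 axes) of Hif3a, Plin4, Tsc22d3 and Sgk1 for the 36 codes, coloured by label. Triangles are the 6 codes with Lcn2 above 2 CPM, and those of code 32A reach 15.8 CPM for Hif3a and 14.8 CPM for Plin4 in DH, above all circles.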

How the data were processed

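Gene counts were deposited by the authors as whole-number read counts per Ensembl gene, and estimated counts per transcript were deposited beside them. Per the submitters' processing notes the tools were FastQC, HISAT2, featureCounts, kallisto and DESeq2 with build GRCm38. Per the labels' protocols the libraries were stranded mRNA libraries read as 75 bp single ends. Estimated counts were rounded to whole numbers here. Reads were counted without molecular identifiers, so the counts are of reads, not of molecules.

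Counts were scaled by TMM and tested with edgeR 4.0.16 in R 4.3.3 (filterByExpr by group, robust quasi-likelihood F-test, Benjamini-Hochberg over all genes), fitting the 36 libraries of a region together, or all 72 for regions. Scripts were tested on simulated counts. CPM are per TMM-scaled total, and log2 CPM use a prior count of 2. Transcripts were matched to GENCODE names by ID (116640 of 119414). Alternatives were DESeq2 1.42.0, limma 3.58.1 and other filters and scalings, plus 2 chosen after seeing the data. The neighbours of each member were its 3 most similar genes. Members and lists were chosen with earlier results of these data known.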

Additional observations from a re-analysis of the deposited data

Results flagged for a closer look

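In each group of 6 libraries, a value was picked out when the gap between the highest or lowest library and its neighbour was a larger share of the group's range than Dixon's 95% critical value for 6 libraries, which chance alone gives in about 1 in 20 groups. Of 120 groups of values (10 genes in 12 groups), 12 were picked out. Plin4 accounts for 4 of them: 14.8 CPM in DH and 9.39 CPM in VH for code 32A (cue, labelled 6J), where the next values were 5.82 and 2.26 CPM, and 10.8 CPM in DH and 8.33 CPM in VH for code 35B (home cage, labelled 6J), where the next were 1.66 and 1.64 CPM. Hif3a in DH for code 32A was 15.8 CPM, with 5.98 CPM next. Nfkbia for code 34A (cue, labelled 6J) was 33.6 CPM in DH and 26.2 CPM in VH, with 25.2 and 20.7 CPM next. These 7 values belong to codes with Lcn2 above 2 CPM.

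The other 5 do not. Sgk1 in DH was 97.7 CPM for code 33B after shock and cue (labelled 6J, next 85.0 CPM) and 76.7 CPM for code 36C in the home cage (labelled 6J, next 60.3 CPM); the second is the home cage library whose value lies within the range of the cue libraries. Code 34B (cue, labelled 6J) was low in VH for Sgk1, at 59.1 CPM with 75.5 CPM next, and for Ddit4, at 47.2 CPM with 54.3 CPM next. Nfkbia in VH was 17.1 CPM for code 41C in the home cage (labelled 6NJ), with 14.4 CPM next.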

How the results depend on the processing

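The number of members past the threshold was recomputed for each comparison of genes under other scalings (RLE), no low-count filter, a mean of at least 1 CPM, DESeq2, a fit of only the groups compared, the replicate block, and without the codes with Lcn2 above 2 CPM or without code 40A, and for the members' transcripts under RLE and the CPM minimum. The comparisons were those averaged over labels, within each label, between labels and between regions. Of these counts 223 were within 1.5 times of the reported one and 5 moved. With the replicate block (limma-voom, code number as a random effect) the 1 member that differed between labels in DH became 0. Without the codes with Lcn2 above 2 CPM, 1 member instead of 0 differed between labels in VH (Klf9), and under 6J 1 member in DH and 2 in VH rose after the cue, instead of 5 in each. With the code as a replicate block, 8 members instead of 5 differed between DH and VH. Of the values of single members, 564 kept their direction and side of the threshold, 25 passed it newly and 11 lost it, and none changed direction past it. Tsc22d3 within a label changed sides more often than any other member, with the tool, the filter, the groups fitted, the block and the codes used. Plin4 between labels in DH was at -0.70 under the limma-voom block and -0.00 without the codes with Lcn2 above 2 CPM. The cause of these moves was not tested. The pairing was checked over all genes: deviations of the DH and VH libraries of a code correlated at -0.19 (code 41C) to 0.34 (code 35B). Since this was not above 0.1 for every code, the codes were not taken as pairs in the main tests. That rule does not show that the codes are unpaired. Over all 36 codes, those with raised Lcn2 included, r was 0.52 (Zbtb16) to 0.87 (Hif3a) for every member but Sgk1 (0.20). The consensus correlation of code numbers was -0.04 in DH and -0.03 in VH. Plin4 and Hif3a, at about 1 to 5 CPM in most libraries, have the widest intervals, and differences of the size of Klf9's could not be seen there.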
